A study of Rattus norvegicus with 28 samples.

Results

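The 5 genes described belong to the circadian clock and were measured in rat brain: Per1 (ENSRNOG00000007387), Per2 (ENSRNOG00000020254), Dbp (ENSRNOG00000021027), Nr1d1 (ENSRNOG00000009329) and Arntl (ENSRNOG00000014448, also called Bmal1). They were picked by identifier from a matrix of 32623 gene rows. All 5 identifiers were found, 0 were missing, and all 5 passed the filter on low counts. The symbols come from the rule that lists the identifiers, because the files hold identifiers only. For the same reason other clock genes and tissue markers were not analysed here. The study set sex and estrous cycle stage against genetic background, using RNA from whole brain of 2 inbred rat strains, BN-Lx/Cub, of Brown Norway origin, and the spontaneously hypertensive SHR/OlaIpcv. From each strain 4 females came from pre-estrus, 4 from estrus and 4 from post-estrus. With 2 males per strain this made 28 libraries in 8 groups. No treatment or age is named in the labels, and the extraction text speaks of 3 alcohol-naïve male rats although 24 of 28 libraries are labelled female. Titles call the libraries of a group biological replicates, so each was taken as 1 animal. If some share an animal, p-values measure a smaller, partly technical spread. No label used here gives the time of day at which a brain was taken.

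The clock of mammalian cells is a loop of transcription. The protein of Arntl pairs with CLOCK and switches on Per1, Per2, Nr1d1 and Dbp through E-box sequences. PER proteins, with CRY partners, return to the nucleus and hold that activator back, and the nuclear receptor encoded by Nr1d1 (REV-ERBα) represses Arntl through ROR elements. Dbp encodes an output factor that binds D-box sequences. Over the day Arntl RNA therefore peaks roughly opposite to Nr1d1, Dbp and the Per genes. Per1 and Per2 also respond to stimulation, light and glucocorticoids through other promoter elements.

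Promoter windows from RefSeq (assembly GRCr8, 250 bases before to 50 after an annotated start) were searched for the letters of these elements on both strands. All 5 genes matched by symbol, Arntl under its RefSeq name Bmal1, and Nr1d1 has 2 annotated starts. The 4 windows printed here held a match to an E-box, D-box or ROR letter string, and are shown because these elements link the members in the known loop. Capitals mark the match. The Per2 window (chr9:99496944-99497243, minus strand) held the D-box TTATGTAA 192 bases before the start and the E-box variant CACGTT 62 bases before it. The upstream Nr1d1 window (chr10:84231763-84232062, minus strand) held AACGTG, the reverse complement of that variant, 174 bases before the start, and the downstream one (chr10:84229405-84229704, minus strand) held the E-box CACGTG 191 bases before its start. The Arntl window (chr1:176766078-176766377, plus strand) held AGGTCA, the core of a ROR element, 15 bases before the start.
Per2: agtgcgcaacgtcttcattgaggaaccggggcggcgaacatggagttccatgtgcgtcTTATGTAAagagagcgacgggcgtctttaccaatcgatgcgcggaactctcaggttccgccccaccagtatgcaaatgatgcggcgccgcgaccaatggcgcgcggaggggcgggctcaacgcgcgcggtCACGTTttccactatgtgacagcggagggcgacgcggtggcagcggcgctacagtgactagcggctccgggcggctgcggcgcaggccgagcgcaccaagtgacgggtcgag
Nr1d1 upstream start: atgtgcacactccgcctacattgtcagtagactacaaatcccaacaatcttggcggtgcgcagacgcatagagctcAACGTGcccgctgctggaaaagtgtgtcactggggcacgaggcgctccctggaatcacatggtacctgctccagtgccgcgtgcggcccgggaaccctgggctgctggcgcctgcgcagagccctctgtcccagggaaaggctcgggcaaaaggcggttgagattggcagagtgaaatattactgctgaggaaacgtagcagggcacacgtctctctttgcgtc
Nr1d1 downstream start: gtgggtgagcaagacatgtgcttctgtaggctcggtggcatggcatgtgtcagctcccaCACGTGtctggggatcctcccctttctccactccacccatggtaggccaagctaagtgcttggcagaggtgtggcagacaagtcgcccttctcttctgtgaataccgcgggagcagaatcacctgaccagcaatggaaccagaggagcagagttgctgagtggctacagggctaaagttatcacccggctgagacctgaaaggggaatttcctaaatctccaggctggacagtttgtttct
Arntl: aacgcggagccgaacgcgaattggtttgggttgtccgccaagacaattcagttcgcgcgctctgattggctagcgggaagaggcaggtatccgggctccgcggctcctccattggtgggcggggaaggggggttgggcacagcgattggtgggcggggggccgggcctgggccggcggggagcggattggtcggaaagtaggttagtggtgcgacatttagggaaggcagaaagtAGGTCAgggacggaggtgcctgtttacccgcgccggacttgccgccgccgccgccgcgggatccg

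The windows of Per1 (chr10:54304126-54304425, plus strand) and Dbp (chr1:105312006-105312305, plus strand) held 0 matches to these strings, to the cAMP response element TGACGTCA or to TGACG, the first part of that element. Per2 held TGACG 38 bases after its start, left in lower case. Among all 33469 promoter windows in the table, CACGTG was found in 6.42%, CACGTT in 4.83%, TTATGTAA in 0.893%, AGGTCA in 16.2%, TGACGTCA in 1.83% and TGACG in 21.2%. The matches do not overlap one another in the windows shown. A match describes letters only, and sequence outside these windows was not searched.

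Libraries held 43410562 to 90667237 expected counts, the read estimates of the RSEM program, and a single clock gene took 472 to 5263 of them in a library. A pair of properties of the libraries bears on the results. The 8 most abundant genes took 34.81% to 50.66% of the gene counts. In addition, most genes moved together between libraries of one group: the first principal component of the deviations of 13990 other genes from their group means, called the shared axis below, held 35.8% of their variance, and 66.7% of these genes correlated with it at an absolute r of 0.5 or more. BN-Lx estrus replicate 2, BN-Lx post-estrus replicate 5 and SHR post-estrus replicate 13 lay farthest out on that axis, and results that rest on them are given with and without them. Sample descriptions end in b35 (15 libraries) or b37 (13 libraries). That suffix was taken as a possible batch, although its meaning is not stated.

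Dbp was the most abundant of the 5 transcripts. Per length, in the deposited TPM (transcript shares scaled for length and depth), it averaged 21.4 ± 6.84 (SD, n = 28 libraries), against 7.47 ± 2.19 for Nr1d1, 5.13 ± 0.988 for Arntl, 2.93 ± 0.922 for Per1 and 2.16 ± 0.572 for Per2. Dbp exceeded Nr1d1 and Arntl exceeded Per1 in 28 of 28 libraries. The other neighbours in the order were closer: Nr1d1 exceeded Arntl in 25 of 28 libraries and Per1 exceeded Per2 in 26 of 28, and over all libraries the ranges of every pair of neighbours overlapped. All further levels are CPM, counts scaled to library size by TMM factors, which compare libraries for a gene and not genes with each other. Between libraries of one group, Arntl was the steadiest member, with an SD of 0.119 on the log2 CPM scale. That SD stood at percentile 10.2 among 4832 genes of similar level (16 to 64 CPM). Per2 had an SD of 0.229, Dbp 0.318, Per1 0.402 and Nr1d1 0.404, at percentiles 57.9, 79.7, 89.7 and 89.9 of the same genes, whose median SD was 0.207.

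**Figure D1:**
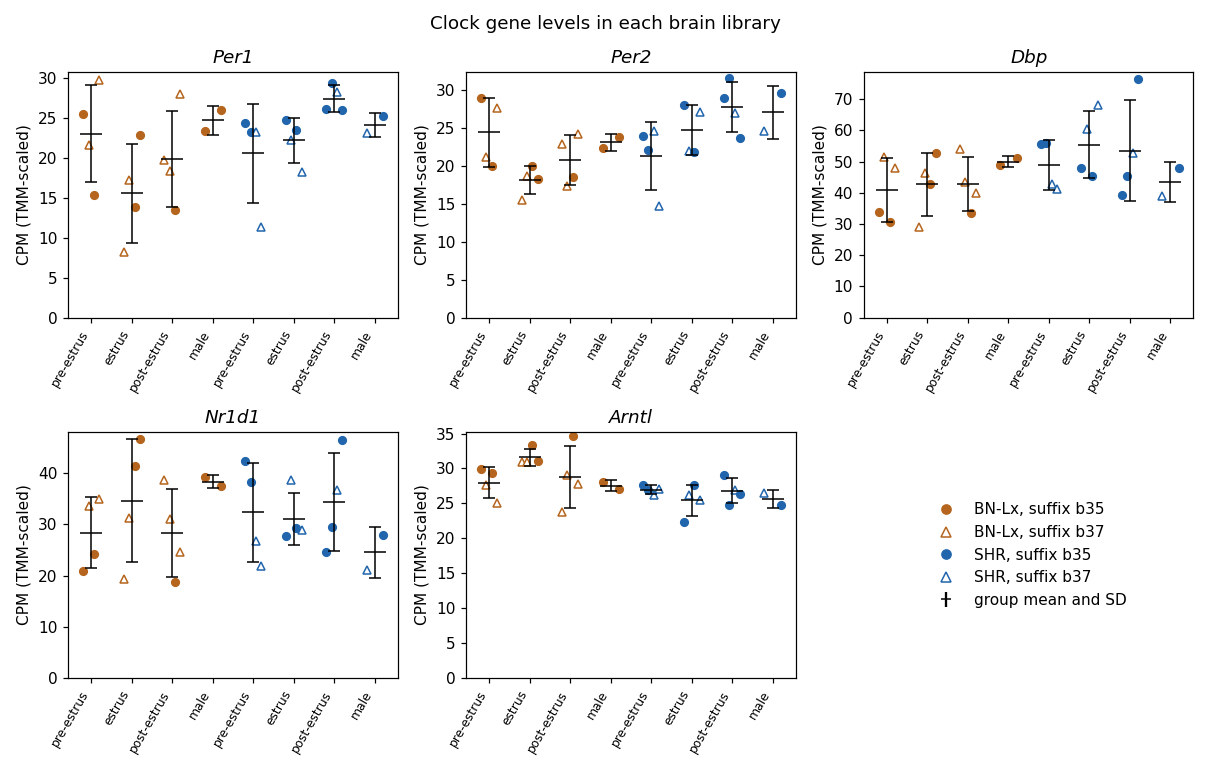
Level of each clock gene in every library, in TMM-scaled CPM on axes that start at 0, by strain (colour), group (the first 4 positions are BN-Lx, the last 4 SHR) and description suffix (symbol). Bars give the group mean and SD. Arntl spans only 22.4 to 34.6 over the 28 libraries, while Nr1d1 spans 18.7 to 46.6.

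The first question was whether the strains differ in their clock genes. In females, Arntl, the activator of the loop, was lower in SHR than in BN-Lx, and it was the only member to pass the test, with an adjusted p just under the threshold. Of 18134 genes tested, 1724 (9.51%) were called between the strains in females at an adjusted p under 0.05, and of the 5 members 1 was. Arntl read 29.9, 27.6, 29.4 and 25.0 CPM in the BN-Lx pre-estrus libraries, 30.9, 31.0, 33.4 and 31.1 at estrus and 23.8, 29.0, 34.6 and 27.8 at post-estrus. In SHR it read 27.7, 26.9, 26.2 and 27.0 at pre-estrus, 22.4, 26.2, 27.7 and 25.5 at estrus and 29.1, 24.8, 26.9 and 26.4 at post-estrus. In bulk RNA, fewer cells of a type and less RNA per cell cannot be told apart. The ranges overlapped, but 7 of the 12 BN-Lx females lay above every SHR female. The fitted SHR-minus-BN-Lx difference was -0.17 on the log2 scale (SE 0.0531, a fold of 0.891 with a 95% interval of 0.826 to 0.961, edgeR adjusted p = 0.0494).

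That call was lost under 8 of 12 other settings. The sign stayed negative in all fits run, but leaving out single libraries moved the adjusted p between 0.0147 and 0.101 (edgeR), and the call was lost in 24 of 28 such fits, the exceptions being the fits without BN-Lx post-estrus replicate 3, BN-Lx pre-estrus replicate 7b, SHR estrus replicate 9 or SHR post-estrus replicate 6. Within b35 libraries the difference was -0.28 (adjusted p = 0.0418) and within b37 libraries -0.08 (adjusted p = 0.857). Arntl averaged 31.7 ± 2.26 CPM in BN-Lx females with b35 (SD, n = 5) and 27.9 ± 2.72 in those with b37 (n = 7), against 26.4 ± 2.21 (n = 7) and 26.3 ± 0.61 (n = 5) in SHR. The b35 fit holds 1 BN-Lx post-estrus library (replicate 5, 34.6 CPM), and the b37 fit holds 1 SHR post-estrus library. Whether the strain difference itself differs between the suffixes was not tested.

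The repressor genes leaned the opposite way in females without passing the test. Per2 averaged 21.0 ± 4.1 CPM in BN-Lx females and 24.6 ± 4.39 in SHR females (SD, n = 12 each), a difference of 0.21 (log2, SE 0.0926, edgeR adjusted p = 0.181). Per1 averaged 19.5 ± 6.37 and 23.4 ± 4.78, a difference of 0.26 (SE 0.156, adjusted p = 0.394). Both ranges overlapped almost fully: BN-Lx females ran from 8.2 to 29.7 CPM for Per1 with a median of 19.0, and SHR females from 11.3 to 29.4 with a median of 24. For Per2 the BN-Lx females ran from 15.5 to 28.9 with a median of 19.9 and the SHR females from 14.7 to 31.5 with a median of 24.2. Within b35 libraries the Per1 difference was 0.55 and passed (adjusted p = 0.0432). There, BN-Lx females averaged 18.2 ± 5.56 CPM (n = 5) and SHR females 25.4 ± 2.07 (n = 7). The BN-Lx post-estrus stage rests there on 1 library, replicate 5 at 13.5 CPM. Across the settings other than the main fit, 150 to 4569 of all genes were called. Within b37 libraries it was 0.15 (adjusted p = 0.932).

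Dbp and Nr1d1, the output factor and the repressor of Arntl, did not pass either. Dbp averaged 42.2 ± 8.81 CPM in BN-Lx females and 52.6 ± 11.4 in SHR females (SD, n = 12 each). Of the SHR females 5 lay above every BN-Lx female, and 4 BN-Lx females lay below every SHR female. The difference was 0.33 (log2, SE 0.127, a fold of 1.26 with a 95% interval of 1.05 to 1.51, edgeR adjusted p = 0.112). Within suffixes it was 0.48 (b35, adjusted p = 0.0744) and 0.24 (b37, adjusted p = 0.539). On the RefSeq assembly Nr1d1 overlaps Thra, and Per2 overlaps LOC134480412, and whether counting used the strand is not given in the sources used here. Nr1d1 averaged 30.4 ± 9.06 and 32.6 ± 7.71, with a difference of 0.09 (SE 0.159, adjusted p = 0.826) whose interval of 0.85 to 1.34 in fold includes both lower and higher levels in SHR. Within suffixes the Nr1d1 difference was 0.35 (b35, adjusted p = 0.144) and 0.05 (b37, adjusted p = 0.98).

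For Dbp and Nr1d1 the direction depended on how the make-up of the RNA was treated. With the share of the 8 most abundant genes as a covariate the strain difference of Dbp became -0.18 (adjusted p = 0.225) and that of Nr1d1 -0.47 (adjusted p = 0.0447). That share ran from 43.17% to 50.66% in BN-Lx females and from 34.81% to 45.91% in SHR females. The covariate thus differs with strain itself, and could take out part of a strain difference. The shared axis was added as a covariate after the data were seen. Made from deviations from group means, it has the same mean in every group. It could therefore hardly move a strain difference, and mainly took out spread within groups. With it Dbp had 0.32 (adjusted p = 2.83e-05) and Nr1d1 0.10 (adjusted p = 0.21). Dbp followed that axis at r = 0.93, so its lower p reflects the spread taken out and not a larger difference. Without the 3 libraries farthest out on the axis, also added later, the differences were 0.19 for Dbp (adjusted p = 0.326) and -0.08 for Nr1d1 (adjusted p = 0.816). Strain and the number carried in the sample description could not be told apart, because each number occurs in 1 strain only.

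**Figure D2:**
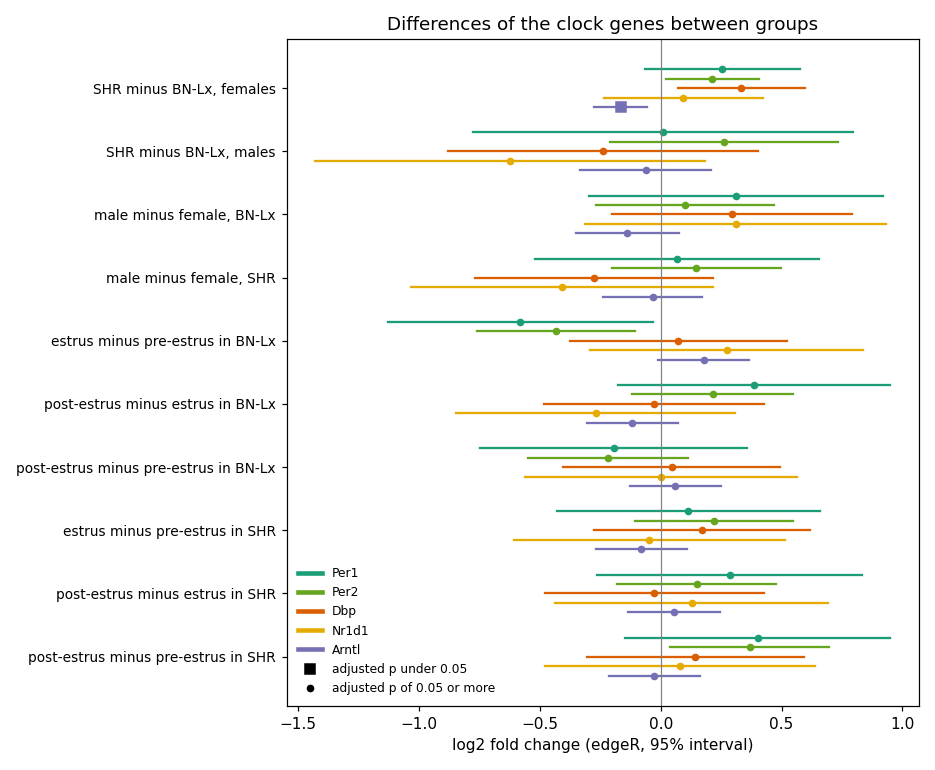
Fitted log2 fold changes of the 5 genes with 95% intervals (lines) for 10 comparisons, from edgeR. The square is the only value with an adjusted p under 0.05, Arntl between the strains in females (-0.17), and every other interval is drawn with a circle.

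A single number per library shows the members' balance. The clock index used here, a description with no test, is the mean log2 CPM of Per1, Per2, Dbp and Nr1d1 minus that of Arntl. It is high where Per1, Per2, Dbp and Nr1d1 are high relative to Arntl. It averaged -0.17 ± 0.42 in BN-Lx females, with a range of -0.91 to 0.45 (SD, n = 12), and 0.23 ± 0.27 in SHR females, with a range of -0.46 to 0.54 (n = 12). The ranges overlapped widely. BN-Lx estrus replicate 2 (-0.91) and BN-Lx post-estrus replicate 5 (-0.80) were lowest, and both are among the libraries farthest out on the shared axis. Without the 3 farthest libraries the index averaged -0.03 ± 0.29 in BN-Lx (n = 10) and 0.20 ± 0.26 in SHR (n = 11). Among b35 females it averaged -0.34 ± 0.31 in BN-Lx (n = 5) and 0.29 ± 0.21 in SHR (n = 7), and among b37 females -0.05 ± 0.46 (n = 7) and 0.13 ± 0.34 (n = 5). With no time of day in the labels, a difference in clock phase cannot be told apart from a difference in collection time. Neither was measured. Dbp and Nr1d1, which enter the index, also followed the shared axis, at r = 0.93 each. With the share of the most abundant genes as a covariate, the strain differences in females were -0.18 for Dbp and -0.47 for Nr1d1. They were 0.09 for Per1, 0.2 for Per2 and -0.16 for Arntl. Whether the make-up of the RNA bears on the index difference was not tested.

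**Figure D3:**
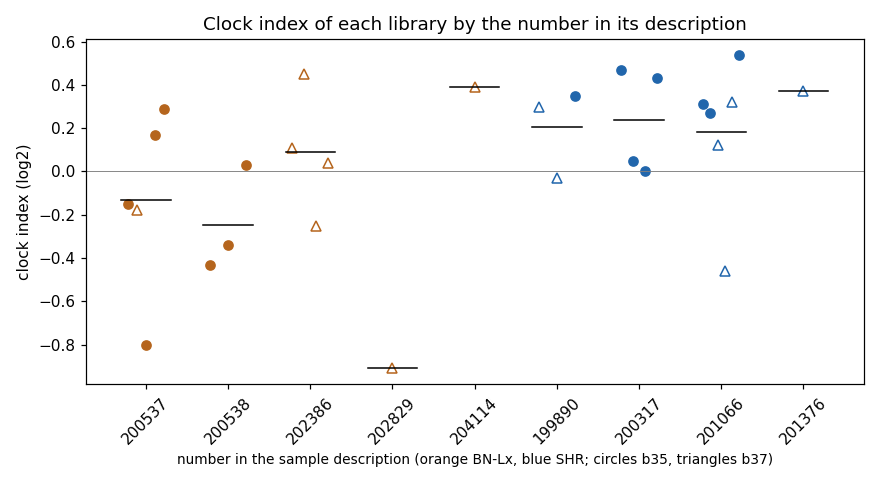
Clock index of each library (log2 scale, mean of Per1, Per2, Dbp and Nr1d1 minus Arntl) by the number in its sample description, with BN-Lx in orange, SHR in blue, circles for b35 and triangles for b37. Horizontal lines are means per number. BN-Lx estrus replicate 2, alone in its number, is the lowest at -0.91, and the 6 libraries of 201066 run from -0.46 to 0.54.

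In males, where each strain had 2 animals, no member passed. The members' levels nevertheless stood apart in 4 of 5 cases. Nr1d1 read 39.3 and 37.4 CPM in the BN-Lx males and 21.0 and 28 in the SHR males, a difference of -0.62 (log2, SE 0.389, edgeR adjusted p = 0.57). Dbp read 48.8 and 51.2 against 38.9 and 48.0, and Arntl 28.1 and 27.0 against 26.5 and 24.7. Per2 went the other way, with 22.3 and 23.8 in the BN-Lx males against 24.5 and 29.5, while Per1 overlapped, with 23.4 and 26.0 against 23.1 and 25.2. Ranges of 2 against 2 libraries also failed to overlap for 58% of all tested genes, so 4 of 5 is near the background. Of all genes 145 (0.8%) were called between the strains in males, and among the members 0 had an unadjusted p under 0.05 in edgeR or DESeq2 and 1 in limma. Of 18134 genes tested in edgeR 1826 were under that unadjusted p, while DESeq2 gave 2052 genes and limma 4214. Both BN-Lx males carry b35, so only that suffix gave a comparison within it, where the differences of the 5 genes lay between -0.45 and 0.35 with 0 called.

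Sex was compared as males minus the mean of the 3 female stages. The test called 6 genes (0.0331%) within BN-Lx, another 6 (0.0331%) within SHR, and 0 (0%) for the sex-by-strain interaction, for which 632 genes had an unadjusted p under 0.05 in edgeR, while DESeq2 called 3 and limma 0. Among the members 0 were called in each case by edgeR, DESeq2 and limma. Nr1d1 gave the widest span, at 0.31 in BN-Lx (log2, SE 0.301, adjusted p = 0.868) and -0.41 in SHR (SE 0.301, adjusted p = 1). The corresponding Dbp values were 0.30 (SE 0.24) and -0.28 (SE 0.238). The interaction was -0.72 for Nr1d1 and -0.57 for Dbp, both with an adjusted p of 0.784. With the shared axis as a covariate these interactions passed (adjusted p = 0.0339 for Nr1d1 and 0.042 for Dbp), a setting added after the data were seen. That axis is made from the spread within groups, which both genes followed at r = 0.93. Across the settings other than the main fit, 0 to 284 genes were called for this interaction. Within b35 libraries they were -0.81 and -0.54, with adjusted p of 0.562 and 0.582.

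The cycle stage was tested within each strain. In BN-Lx both Per genes had their lowest mean at estrus, a difference that did not pass over all genes. Per1 read 25.5, 21.6, 15.4 and 29.7 CPM at pre-estrus, 8.2, 17.2, 13.9 and 22.9 at estrus and 19.7, 18.3, 13.5 and 28 at post-estrus. Per2 read 28.9, 21.1, 19.9 and 27.6 at pre-estrus, 15.5, 18.7, 19.9 and 18.2 at estrus and 22.9, 17.3, 18.5 and 24.1 at post-estrus. The Per2 ranges of pre-estrus and estrus only met, at 19.9, while the Per1 ranges of all stages overlapped. The estrus-minus-pre-estrus values were -0.43 for Per2 (log2, SE 0.158) and -0.58 for Per1 (SE 0.265). Without BN-Lx estrus replicate 2 they were -0.37 and -0.36, within b35 libraries -0.36 and -0.15, and within b37 libraries -0.52 and -1.02. With the replicate block Per2 was -0.14, and with the description number as a term Per1 was -0.23. The test over the 3 stages gave an adjusted p of 0.977 for both. Of all genes 0 (0%) passed in BN-Lx with edgeR, where 589 had an unadjusted p under 0.05, among them Per2. DESeq2 called 3 genes and limma 0, and none was a member.

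In SHR both Per genes had their lowest mean at pre-estrus and their highest at post-estrus, without passing. For Per1 the low pre-estrus mean rested on replicate 12 (11.3 CPM). When 1 library was left out, the Per1 value for estrus minus pre-estrus ran from -0.09 to 0.21 (log2). Between estrus and post-estrus the Per2 means ran the same way in both strains, from 18.1 to 20.7 CPM in BN-Lx and from 24.7 to 27.8 in SHR. Per2 read 23.9, 22, 24.5 and 14.7 CPM at pre-estrus, 28, 21.9, 21.8 and 27.1 at estrus and 28.9, 31.5, 26.9 and 23.7 at post-estrus, with overlap between each pair of stages. Per1 read 24.4, 23.3, 23.3 and 11.3 at pre-estrus, 24.8, 22.3, 23.5 and 18.2 at estrus and 26.1, 29.4, 28.2 and 26.0 at post-estrus, where all 4 libraries lay above every estrus and pre-estrus library. Of all tested genes, 15 (0.0827%) separated in that way, a measure chosen after the Per1 values were seen, and the test over the stages did not call Per1. Post-estrus minus pre-estrus was 0.37 for Per2 (SE 0.159) and 0.40 for Per1 (SE 0.264). Without SHR pre-estrus replicate 12 they were 0.24 and 0.21, with the description number as a term Per2 was 0.19, and within suffixes Per1 was 0.18 (b35) and 0.66 (b37). The adjusted p over the 3 stages was 1 for all 5 genes. Of all genes 0 (0%) passed in SHR with edgeR, 116 had an unadjusted p under 0.05, and DESeq2 called 5 and limma 1, with 0 members among them.

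The difference in stage pattern between the strains was tested directly. Per2 had the lowest p of the members (edgeR adjusted p = 0.972, below 0.05 only before adjustment). Of all genes 0 (0%) passed, 268 had an unadjusted p under 0.05, DESeq2 called 1 and limma 0, and no member was called.

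Dbp, the output factor, read 34.0, 51.6, 30.6 and 47.9 CPM at pre-estrus, 29.0, 46.4, 42.8 and 52.8 at estrus and 54.2, 43.4, 33.5 and 40.1 at post-estrus in BN-Lx. In SHR it read 55.6, 56.0, 42.8 and 41.3, then 47.8, 60.4, 45.4 and 68.3, then 39.3, 45.5, 52.8 and 76.4. The stages overlapped in both strains. It averaged 41.0 ± 10.3, 42.7 ± 10.1 and 42.8 ± 8.64 CPM at the 3 successive stages in BN-Lx, while SHR gave 48.9 ± 7.95, 55.5 ± 10.8 and 53.5 ± 16.2 (SD, n = 4 each). Nr1d1, the repressor of Arntl, read 20.9, 33.5, 24.2 and 35 CPM at pre-estrus, 19.4, 31.2, 41.3 and 46.6 at estrus and 38.7, 31.0, 18.7 and 24.6 at post-estrus in BN-Lx. In SHR it read 42.4, 38.3, 26.8 and 21.8, then 27.7, 38.7, 29.2 and 28.8, then 24.5, 29.5, 36.7 and 46.5. Its stages overlapped too. It averaged 28.4 ± 6.91, 34.6 ± 12.0 and 28.2 ± 8.6 in BN-Lx, while SHR gave 32.3 ± 9.65, 31.1 ± 5.12 and 34.3 ± 9.56. Arntl was highest at estrus in BN-Lx, at 31.6 ± 1.22 against 28 ± 2.2 at pre-estrus, a difference of 0.18 (log2, SE 0.091) that became -0.06 with the replicate block, and the adjusted p over its 3 stages was 0.977. Among b35 libraries alone Nr1d1 passed for stage in BN-Lx (adjusted p = 0.0308) and for the interaction (adjusted p = 0.0207). That fit holds 1 BN-Lx post-estrus library and called 2886 and 5585 genes, while the b37 fit called 0 and 1 genes and gave Nr1d1 adjusted p of 0.965 and 0.884.

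The next question was whether libraries of the same group differ along the clock. Over 28 libraries with group means removed, 2 of 10 pairs of members varied together past the threshold. Dbp and Nr1d1 correlated at r = 0.87 and rho = 0.86 (permutation p = 3e-05, adjusted over the 10 pairs 0.0003), and r was 0.83 without the 2 libraries farthest out in Dbp. Per1 and Per2 correlated at r = 0.69 and rho = 0.69 (permutation p = 0.0021 and 0.00099, adjusted 0.01 and 0.0049), and r was 0.56 without the 2 libraries farthest out in Per1. One of them decides the call: without SHR pre-estrus replicate 12 the r was 0.57 and the adjusted permutation p 0.065.

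Arntl gave a negative r with each of the other 4 genes, and no such pair passed. The r values were -0.32 with Per1, -0.35 with Per2, -0.41 with Dbp and -0.36 with Nr1d1 (adjusted permutation p of 0.16, 0.15, 0.13 and 0.15). Corresponding rho values were -0.40, -0.36, -0.38 and -0.24, with adjusted permutation p of 0.16, 0.19, 0.19 and 0.34. With the share of the 8 most abundant genes removed, the pair of Dbp and Arntl reached r = -0.63 (adjusted permutation p = 0.0056). Without the 3 libraries farthest out on the shared axis it was -0.44 (adjusted permutation p = 0.26), and with the description number removed -0.44 (0.049). With that number removed, Per1 with Arntl gave r = -0.40 and rho = -0.67 (adjusted permutation p = 0.017 and 0.0012), and Per2 with Arntl r = -0.33 and rho = -0.49 (0.091 and 0.047). With the suffix removed, Per1 with Arntl gave r = -0.39 and rho = -0.44 (adjusted permutation p = 0.067 and 0.046). Where a term was removed, the permutations moved the remaining deviations within groups without allowing for that term. A library alone in its number keeps no deviation, so p with the number removed may be too small. The remaining 4 pairs did not pass: r was 0.57 for Per1 with Nr1d1, 0.46 for Per1 with Dbp, 0.20 for Per2 with Nr1d1 and 0.18 for Per2 with Dbp (adjusted permutation p of 0.077, 0.093, 0.41 and 0.41). Per1 with Nr1d1 passed when BN-Lx post-estrus replicate 6 (r = 0.64, adjusted permutation p = 0.021), BN-Lx pre-estrus replicate 3 (0.63, p = 0.035) or SHR estrus replicate 5 (0.59, p = 0.048) was left out. Without the same SHR estrus library Dbp with Arntl gave -0.51 (adjusted permutation p = 0.048), and without BN-Lx post-estrus replicate 6 Per1 with Dbp gave 0.51 (0.047).

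Both pairs that passed had a like r in each strain. Dbp with Nr1d1 gave r = 0.91 in the 14 BN-Lx libraries (adjusted permutation p = 0.015) and 0.82 in the 14 SHR libraries (0.037), and Per1 with Per2 gave 0.71 (0.062) and 0.73 (0.37). Without the 3 libraries farthest out on the shared axis, r was 0.79 for Dbp with Nr1d1 (adjusted permutation p = 0.0075) and 0.69 for Per1 with Per2 (0.073). Within suffixes, where groups shrink to between 1 and 3 libraries and few permutations exist, Dbp with Nr1d1 gave 0.90 for b35 (adjusted permutation p = 0.48) and 0.75 for b37 (0.66). Per1 with Per2 gave 0.49 for b35 (0.75) and 0.77 for b37 (0.66). The b35 values rest on 2 libraries each: without the 2 farthest, Dbp with Nr1d1 gave 0.34 and Per1 with Per2 gave 0.05. The pairs of Arntl with Dbp and Nr1d1 read -0.60 and -0.55 within BN-Lx, against -0.11 and -0.03 within SHR, and the difference between strains was not tested.

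**Figure D4:**
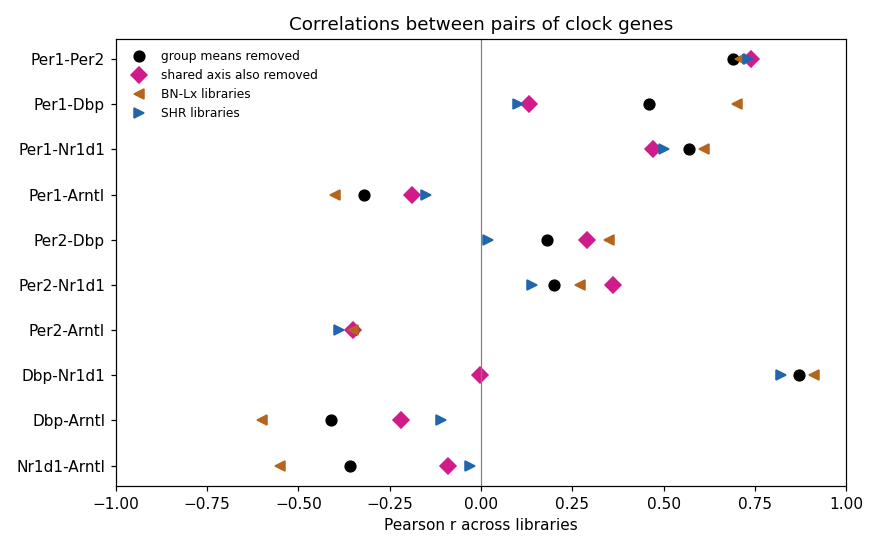
Pearson r for the 10 pairs of clock genes over all 28 libraries with group means removed (black), after also removing the axis shared by all genes (pink), and within BN-Lx (orange) and SHR (blue). Dbp with Nr1d1 goes from 0.87 to about 0 when the shared axis is removed, while Per1 with Per2 stays at 0.74.

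The correlated pairs were then set beside the axis that most genes share. Dbp and Nr1d1 both followed the shared axis, at r = 0.93 each (rho = 0.93 and 0.92, permutation p = 1e-05, the smallest 100000 permutations can give, adjusted over 6 measures 3e-05). Without the 2 farthest libraries these r values were 0.92 and 0.91. The share of the 8 most abundant genes followed it in reverse (r = -0.81, rho = -0.79, adjusted permutation p = 4e-05 and 0.00012). For Per2 no relation passed (r = 0.08, rho = 0.01, adjusted permutation p = 0.72 and 0.98), and Per1 and Arntl gave 0.45 and -0.36 (adjusted permutation p = 0.097 and 0.19). After removal of the axis, Dbp and Nr1d1 had an r of -0.004 (adjusted permutation p = 0.98), whereas Per1 and Per2 kept 0.74 (0.0055). Within suffixes the r with the axis was 0.95 (b35) and 0.81 (b37) for Dbp and 0.97 and 0.83 for Nr1d1, with no adjusted permutation p under 0.05. Within strains it was 0.91 and 0.97 for Dbp and 0.95 and 0.91 for Nr1d1 in BN-Lx and SHR (adjusted permutation p of 0.0036, 0.0009, 0.0022 and 0.00084).

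**Figure D5:**
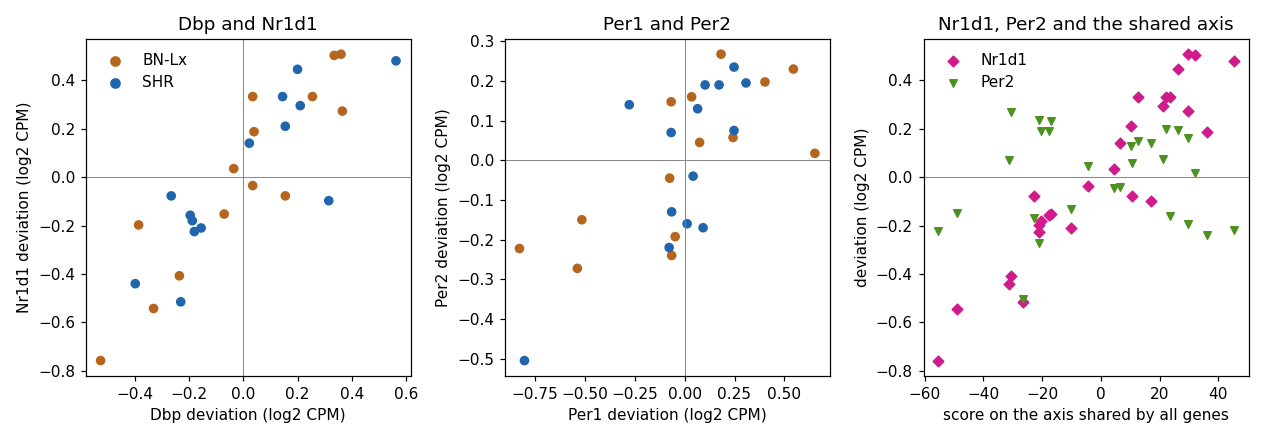
Deviations of log2 CPM from the group mean, one point per library: Nr1d1 against Dbp (left), Per2 against Per1 (middle), and Nr1d1 (pink diamonds) and Per2 (green triangles) against the score on the axis shared by all genes (right). Nr1d1 rises along that axis (r = 0.93) while the r of Per2 is 0.08.

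The members were also ranked among all genes. Of 13994 genes averaging 1 CPM or more, 1018 (7.27%) correlated more strongly with Dbp than Nr1d1 did. For Per2, by comparison, only 7 genes (0.05%) had a higher r than Per1, and for Per1, 32 genes (0.229%) had a higher r than Per2. At the other end, the genes with a lower r with Arntl than the member had made up 12.3% for Dbp, 16.5% for Nr1d1, 17.5% for Per2 and 21% for Per1. Taken the other way, the genes with a lower r with the member than Arntl had made up 5.83% for Per2, 23.1% for Per1, 35.2% for Dbp and 37.7% for Nr1d1. The genes most like Dbp were ENSRNOG00000009712 (r = 0.96) and ENSRNOG00000004169 (r = 0.96), and the least alike were ENSRNOG00000002764 (r = -0.93) and ENSRNOG00000013356 (r = -0.91), all over 28 libraries.

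Finally, the members were compared between suffixes and between the numbers in the sample descriptions, whose meaning is not stated. Of all genes 10 (0.0551%) differed between the suffixes, and among the members 0 were called by edgeR, DESeq2 or limma, with differences of -0.08 to 0.08 (log2). For the number, tested beyond strain, sex, stage and suffix, 3 genes (0.0165%) were called, with 0 members by edgeR and 2 of 5 members at an unadjusted p under 0.05. Of all 18134 genes tested, 2026 had an unadjusted p under 0.05 in that edgeR fit. Dbp and Nr1d1 were the 2 members, with edgeR adjusted p of 0.409 and 0.446. In BN-Lx the libraries with the numbers 200537 (5 libraries) and 200538 (3) averaged 42.2 and 42.1 CPM of Dbp, and the 4 that share the number of pre-estrus replicates 5 and 7b averaged 46.5. In SHR those with 199890 (3), 200317 (4) and 201066 (6) averaged 51.7, 44.5 and 55.4. These means pool stages and, for 200537 and 199890, include males. The description of BN-Lx post-estrus replicate 6 gives its number in differing spellings. The one shared with pre-estrus replicates 5 and 7b was used. The lowest and highest BN-Lx females in Dbp, estrus replicate 2 (29.0) and post-estrus replicate 3 (54.2), were each alone in their number. DESeq2 called Dbp for the number (adjusted p = 0.0122), and limma called Dbp and Nr1d1 (0.000359 and 0.000396). Both were also called by edgeR without BN-Lx post-estrus replicate 4 (adjusted p = 0.00135 and 0.00163). Over the fits that left out 1 library, the count of all genes called for the number ran from 0 to 5261. Within b35 libraries the adjusted p were 0.0144 and 0.0174, and within b37 libraries 0.0537 and 0.057. The same DESeq2 and limma fits called 765 and 5177 genes.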

How the data were processed

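Total RNA from whole brain was depleted of ribosomal RNA and sequenced as paired-end reads, per the labels' protocols. Reads were trimmed with cutadapt and counted with RSEM, per the submitters' processing notes. No version, genome build, annotation or strand setting is given in the sources used here. The authors deposited expected counts per gene for the 28 libraries in 1 matrix, and expected counts and TPM per library, which RSEM scales to length and depth. Expected counts were rounded to whole numbers, and the 92 spike-in rows stayed out of library sizes and tests. The matrix and the per-library files differed by at most 0.5 counts.

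The filterByExpr function of edgeR, at a minimum of 10 counts, left 18134 genes. The 8 groups and the suffix were fitted in 1 model with TMM scaling and edgeR's quasi-likelihood test (edgeR 4.0.16, R 4.3.3), with Benjamini-Hochberg adjustment over all genes tested at 0.05. CPM values were computed here from the deposited expected counts, and log2 CPM used a prior count of 2. Pearson and Spearman correlations used deviations from group means, with p (tested in both directions) from 100000 permutations within groups, adjusted over 10 pairs, and, for leaving out the farthest libraries, the 2 farthest from the median. DESeq2 1.42.0 and limma 3.58.1 were alternatives. Scripts were tested on simulated data. Replicate numbers did not pair the libraries. All 5 members are described in every library. The genes most like Dbp and least like it are named by r, among genes averaging 1 CPM or more. Members, lists and tests were chosen with earlier results of these data known.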

Additional observations from a re-analysis of the deposited data

Results flagged for a closer look

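The 5 genes and the clock index were examined in the 6 groups of 4 libraries, which made 36 sets, 30 of them for the genes. Of these, 3 held a library whose gap to its nearest neighbour exceeded Dixon's 95% critical value, as a share of the group's whole range, and chance alone flags about 1 in 20 groups. Per1 in SHR pre-estrus replicate 12 was the lowest of its group, at 11.3 CPM against 23.3 to 24.4 in the others, with a gap of 0.943 of the range. Per2 was also lowest there, at 14.7 CPM. Arntl in BN-Lx estrus replicate 8 was the highest of its group, at 33.4 CPM against 30.9 to 31.1, with a gap of 0.893. Nr1d1 in SHR estrus replicate 6 was the highest of its group, at 38.7 CPM against 27.7 to 29.2, with a gap of 0.843.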

How the results depend on the processing

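Depth did not limit detection of the members, whose counts were 472 or more in each library. Groups held 2 to 4 libraries, and time of day is not labelled. In females 0 members were called between strains with limma, with no filter on low counts, with no suffix term, in b37 libraries, without the 3 libraries farthest on the shared axis or with only the groups compared, and 2 were called in b35 libraries and with the shared axis as a covariate. Leaving out 1 library gave 0 to 1. Among all genes, 150 to 4569 were called for strain in females across the other settings. With the shared axis as a covariate 1 member was called in males (Nr1d1, -0.59, adjusted p = 0.00834) and 2 for sex by strain. All genes called across the other settings ran from 51 to 1829 in males, 0 to 284 for sex by strain and 0 to 5177 for the description number. In b35 libraries 1 member was called for stage in BN-Lx and 1 for stage by strain. For the description number 1 member was called with DESeq2, 2 with limma and 2 in b35 libraries, and 0 to 2 when 1 library was left out. Of the 10 pairs, 4 passed with the share of the 8 most abundant genes removed and 4 with the number removed. With the shared axis removed 1 passed, without the 3 farthest libraries 1, and when 1 library was left out 1 to 4. The permutations did not allow for the number removed, so p in that setting may be too small.

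Directions of the strain, sex and suffix differences turned as follows, and the cause was not tested. The strain difference in females became -0.18 for Dbp and -0.47 for Nr1d1 with the abundant share as a covariate, and for Nr1d1 -0.02 with limma, -0.08 without the 3 farthest libraries and -0.0002 to 0.16 leaving out 1 library. In males Per1 became -0.0006 (limma), -0.02 (no filter), -0.03 (no suffix term) and -0.01 (abundant share), and ranged from -0.07 to 0.09 leaving out 1 library, as Arntl did from -0.16 to 0.04. The sex difference in SHR became -0.16 for Per2 with the number as a term and 0.03 for Arntl in b37 libraries, and leaving out 1 library gave -0.01 to 0.1 for Per1 and -0.13 to 0.06 for Arntl. Sex by strain became -0.22 for Per2 with the number as a term, and -0.08 to 0.14 leaving out 1 library. The suffix difference became 0.004 for Nr1d1 with limma (-0.15 to 0.04 leaving out 1 library) and -0.19 for Dbp with the number as a term. The r of Dbp and Nr1d1 became -0.004 with the shared axis removed. Of the 30 pairwise stage values, none of which passed, 21 turned in sign under some setting, 19 under other settings and 14 leaving out 1 library. Other settings gave -0.45 to 0.96 for Nr1d1 at estrus minus pre-estrus in BN-Lx and -0.45 to 0.81 for Per1 at post-estrus minus estrus there.

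With the replicate number as a replicate block, 0 members were called between strains in females (Arntl -0.32, adjusted p = 0.497). The block turned the strain difference in males of Per1 to -0.22 and of Arntl to 0.01, the sex difference in SHR of Dbp to 0.97 and of Nr1d1 to 1.04, sex by strain of Per2 to -0.1, and the suffix difference of Per1 to 0.38, of Per2 to 0.06 and of Nr1d1 to 0.55. Libraries with the same number in different groups had a median r of -0.124 over 18 pairs, against 0.00939 over 322 pairs with different numbers, so the numbers were not taken as a pairing.

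Genes called among all tested ranged across the other settings from 150 to 4569 for strain in females, 51 to 1829 in males, 0 to 2886 for stage in BN-Lx, 0 to 5 in SHR, 0 to 74 for sex in BN-Lx, 2 to 17 in SHR, 0 to 5585 for stage by strain, 0 to 284 for sex by strain, 0 to 236 for suffix and 0 to 5177 for number. A b37 value could not be fitted for strain in males, sex in BN-Lx or sex by strain, nor the number as a term for the strain difference.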
